A study of Homo sapiens with 2 samples.

Results

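Solute carrier (SLC) genes encode the largest group of membrane transporters, which move amino acids, sugars, ions, metals, vitamins and nucleotides across the plasma membrane and organelle membranes. Peaks of RNA bound by eIF4A1 were examined at these genes in DU145, an established cell line of human prostate cancer. Members were the genes whose RefSeq symbol begins with SLC and a digit or with SLCO, antisense genes left out, together with all their peaks not called distal intergenic. The rule found 31 genes with 34 peaks, of 1540 genes with 1844 such peaks in the whole data set.

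eIF4A1 is the RNA helicase of the cap-binding complex eIF4F, and it unwinds structure in mRNA leaders so that the small ribosomal subunit can load and scan. Transporter proteins are made on ribosomes at the endoplasmic reticulum (ER) and set how much substrate a cell takes up or passes between compartments. Growing tumour cells depend on many of them for amino acids, for acid and metal balance and for mitochondrial supply.

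The data come from 1 cytoplasmic lysate of DU145 cells that was split for immunoprecipitation with anti-eIF4A1, raised in rabbit, or with rabbit IgG as the control. RNA recovered by each antibody was sequenced as 1 library, 2 libraries in all, and the labels name no drug, genotype or time for either. The deposited values are 1 list of peaks, intervals where reads of the eIF4A1 library pile up over a control, and each peak's fold, p and q belong to the authors. With 1 library per antibody there is no replicate error, no difference has a replicate check, and no test was made. Library totals were not used here, so depth is given as the number of reads at each summit, the highest base of a peak, recovered from the deposited values. Reads ranged from 2 to 18 over all 1844 peaks. A peak list does not show expression: of 7 epithelial and DU145 marker genes looked up, 1 (CD44) had a peak, and of 3 genes not typical of these cells, 0 had one. Fewer copies of an RNA in the lysate and less binding per copy cannot be told apart from these values.

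Peaks were found at solute carrier genes about as often as at other genes. Of 397 protein-coding SLC genes in RefSeq, 30 had a peak, a share of 7.56% (exact 95% binomial interval 5.16 to 10.6), beside 6.83% of all 20056 protein-coding genes. A peak with a fold of 5 or more stood at 8 SLC genes (2.02%, interval 0.874 to 3.93), beside 1.65% of all protein-coding genes. At least 5 reads were also found at 8 SLC genes, beside 1.90% of all. These shares lie near the background, and the intervals cover counting error only. The 31st member, SLC12A2-DT, is a noncoding RNA read away from the start of the chloride transporter gene SLC12A2, and another member, SLC4A1AP, encodes an adaptor protein and no transporter.

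The SLC peaks had a median fold of 3.94 (quartiles 3.92 and 4.98), beside 3.99 (3.92 and 4.97) over all peaks. Their lowest fold was 2.95 and their highest 8.01, while the highest of all peaks was 13.3. Of the 34 peaks, 7 rested on 2 reads, 15 on 3, 4 on 4 and 8 on 5 or more. At least 5 reads were thus found at 23.5% of SLC peaks (interval 10.7 to 41.2), beside 27.4% of all peaks. The fold of an SLC peak followed its reads closely, since the caller divides reads + 1 by background + 1. The background at the summit, the reads expected there from the control, had a median of only 0.0176 and reached 0.299. Over all peaks the background reached 4.4, and where it is high the fold follows the reads less closely. A total of 8 SLC peaks shared exactly the same fold of 3.93, which is 3 reads over a background of 0.0176, as did 273 of all 1844 peaks. Order among peaks of equal or neighbouring read number is therefore not distinguishable at this depth.

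**Figure D1:**
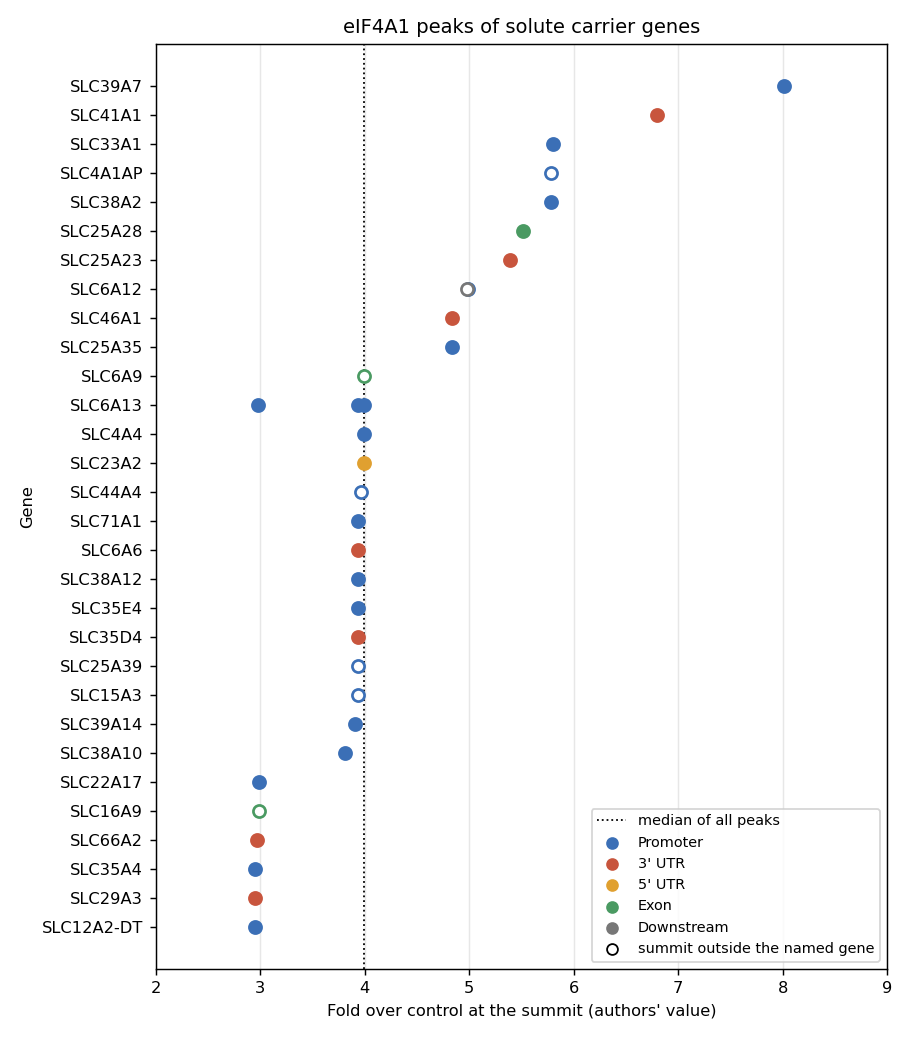
Fold over control (horizontal axis, authors' value) of 33 peaks at 30 solute carrier genes, coloured by the authors' annotation class, with open symbols for summits outside the named gene and a dotted line at the median of all peaks (3.99). SLC39A7 (8.01) and SLC41A1 (6.80) stand to the right, and most genes sit near a fold of 3 or 4; the 2 symbols of SLC6A12 (4.99 and 4.98) overlap.

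**Figure D2:**
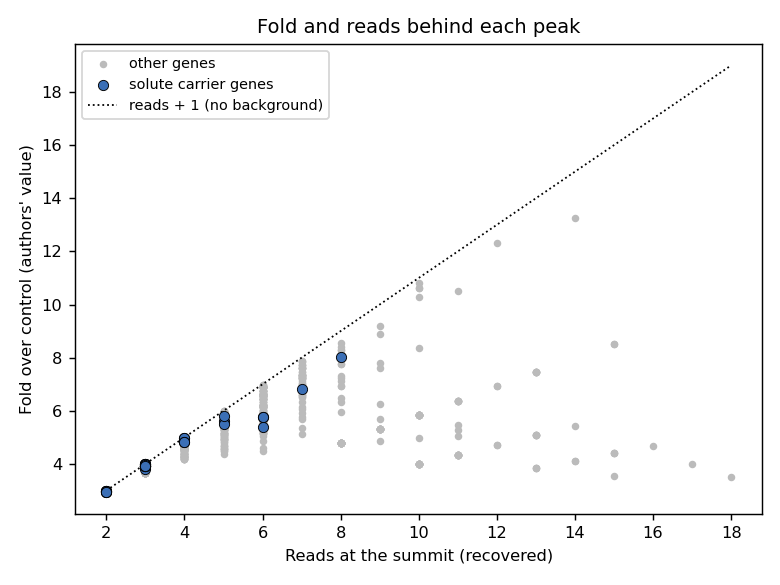
Fold over control (vertical axis) against the reads recovered at the summit (horizontal axis) for SLC peaks (blue) and all other peaks not called intergenic (grey), with a dotted line at reads plus 1, the fold with no background. SLC peaks run from 2 to 8 reads and lie close under the line.

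By fold, the highest pair of SLC peaks lay at the metal transporter genes SLC39A7 and SLC41A1. By −log10 q, both peaks listed under SLC6A12 (8.02 and 7.86) stood above this pair. SLC39A7 encodes ZIP7, which releases zinc from the ER and Golgi into the cytosol. Its peak (chromosome 6, 33202607 to 33202626) had a fold of 8.01 and −log10 q of 7.42, with 8 reads at the summit (exact 95% Poisson interval 3.45 to 15.8) over a background of 0.123. By fold it ranked 19 among the 1844 peaks. The summit lay 1.76 kb into the gene (33200867 to 33204437), at 49.2% of its length, and was classed as promoter from a start inside the gene 368 bases away. SLC41A1 encodes a sodium-dependent magnesium exporter of the plasma membrane. Its peak, in the 3' UTR class (chromosome 1, 205790111 to 205790130), had a fold of 6.80 with 7 reads (interval 2.81 to 14.4) and −log10 q of 5.08. SLC41A1 was the only gene with a peak among 9 genes for other metals and magnesium. The intervals of the 2 read numbers overlap almost entirely, so the difference between these folds is within counting error. Of 24 zinc transporter genes, the other one with a peak was SLC39A14, encoding ZIP14, a carrier of zinc, iron and manganese, at a fold of 3.91 on 3 reads.

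SLC33A1 encodes the transporter that brings acetyl-CoA into the ER and Golgi for protein acetylation. Its peak (chromosome 3, 155853991 to 155854010) had a fold of 5.80, −log10 q of 5.55 and 5 reads (interval 1.62 to 11.7), and the summit lay 425 bases from the 5' end of the gene. It was the only gene with a peak among 8 in the fatty acid and lipid group. All transport groups here were set by SLC family number and not by the substrate of each gene.

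Amino acid transporters made up the largest set, with a peak at 7 of 62 genes (11.3%, interval 4.66 to 21.9), an interval that includes the 6.83% of all protein-coding genes. The median best fold of the 7 was 3.99, the same as over all genes with a peak. SLC38A2 encodes SNAT2, a sodium-coupled carrier of small neutral amino acids that cells induce when amino acids are short. Its peak (chromosome 12, 46372562 to 46372629) had a fold of 5.78 and −log10 q of 3.20, with 6 reads (interval 2.20 to 13.1) over a background of 0.211. The peak spanned bases 144 to 211 downstream of the gene's 5' end. It is 1 of 3 SLC peaks that RefSeq sequence windows reach (GRCh38.p14), here through the window of its antisense neighbour, so the 30 bases up to its summit can be shown on the minus strand (chr12:46372562-46372591), the summit base in a capital.
SLC38A2: aattttttgtttgttttttatgatttgtaT
Of these 30 bases 21 are T and 4 are G or C. Over the whole peak of 68 bases, T made up 57.4% and G and C together 25%.

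The betaine and GABA carrier genes SLC6A12 (BGT1) and SLC6A13 (GAT2) are neighbours on chromosome 12, 6465 bases apart, and by the authors' gene names were the only SLC genes with more than 1 peak. That is 2 of 31 members (6.45%, interval 0.791 to 21.4), beside 13.8% of the 1540 genes with a peak. They carried 5 of the 34 peaks, over 14.5 kb from the first summit to the last. At SLC6A12, 1 summit lay 3 bases inside the 5' end of the gene (214143 to 214164), with a fold of 4.99 and 4 reads. The other peak listed under SLC6A12 (218686 to 218706, fold 4.98, 4 reads) lay between both genes, in no RefSeq gene, and was classed as downstream. Both genes are read from high to low coordinates. This summit lay 4544 bases before the 5' end of SLC6A12 and nearer to the 3' end of SLC6A13 (220622). The peaks listed under SLC6A12 had −log10 q values of 8.02 and 7.86, the highest of all SLC peaks, on 4 reads each (interval 1.09 to 10.2). The background there was only 0.00298 and 0.00352. SLC6A13 carried 3 peaks with folds of 2.98, 3.93 and 3.99 on 2, 3 and 3 reads. All 3 summits fell between 80.9% and 91.2% of the gene's length, 34.2 to 38.5 kb from its 5' end, although each was classed as promoter. No peak of another gene lay within 20 kb of the pair.

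**Figure D3:**
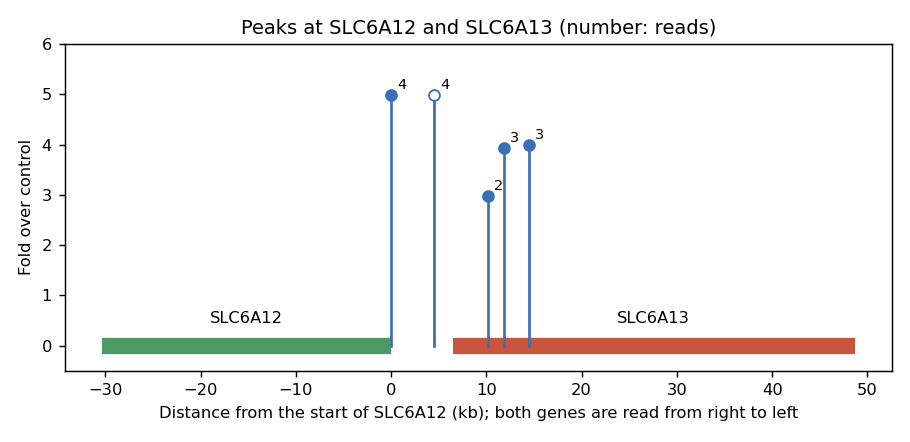
Fold over control (vertical axis) of the 5 peaks at SLC6A12 and SLC6A13 against distance from the start of SLC6A12 in kb, with the genes as bars, the reads at each summit as numbers and an open symbol for the summit in no gene. The 2 peaks listed under SLC6A12 carry 4 reads each, and the open one lies between the genes, nearer to the end of SLC6A13. The 3 SLC6A13 peaks lie near the end of that gene.

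The remaining 4 amino acid carrier genes each had 1 peak on 3 reads. SLC6A9, encoding the glycine transporter GlyT1, was listed with a fold of 3.99, but its summit lay 8515 bases outside the gene, in LOC107984948. SLC6A6, the taurine transporter gene, had 3.93 in the 3' UTR class, and SLC38A12 (deposited as TMEM104) had 3.93 at 0.829 kb from its 5' end. SLC38A10 had 3.81, with the summit at 90.9% of its length.

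Mitochondrial carriers of the SLC25 family had a peak at 4 of 48 genes (8.33%, interval 2.32 to 20). SLC25A28 encodes mitoferrin-2, which brings iron into mitochondria, and had a fold of 5.51 on 5 reads (interval 1.62 to 11.7) in the exon class (chromosome 10, 99611039 to 99611058). SLC25A23, a calcium-regulated carrier of ATP-magnesium and phosphate, had a fold of 5.39 in the 3' UTR class (chromosome 19, 6440609 to 6440635). Its summit carried 6 reads (interval 2.20 to 13.1) over a background of 0.299, the highest among the SLC peaks. SLC25A35 had a fold of 4.83 on 4 reads. SLC25A39, which supplies glutathione to mitochondria, had 3.93 on 3 reads, with its summit 784 bases outside the gene. The first 2 peaks lay at 98.9% and 80.8% of the gene length, and that of SLC25A35 lay 285 bases from the 5' end.

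Among genes of the exchangers and cotransporters for bicarbonate, chloride, sodium, protons and other cations, 3 of 53 had a peak (5.66%, interval 1.18 to 15.7). SLC4A1AP, counted here by its name only, was listed with a fold of 5.78 and −log10 q of 3.20 on 6 reads (chromosome 2, 27661158 to 27661267), but the summit lay 2726 bases outside that gene, in SUPT7L. SLC4A4, the sodium bicarbonate cotransporter NBCe1 gene, had 3.99 on 3 reads, 193 kb into a long gene.

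Nucleoside, nucleotide and nucleotide sugar transporters had a peak at 4 of 38 genes (10.5%, interval 2.94 to 24.8), all on 2 or 3 reads. SLC35E4 and SLC35D4 (deposited as TMEM241) had a fold of 3.93, and SLC35A4 and the lysosomal nucleoside transporter gene SLC29A3 had 2.95, which with SLC12A2-DT was the lowest fold among the SLC peaks. Vitamin transporters had 2 of 14 (14.3%, interval 1.78 to 42.8). They were SLC46A1, the proton-coupled folate transporter gene (4.83, 4 reads, in a stretch that also belongs to SARM1), and SLC23A2, a vitamin C transporter gene (3.99, 3 reads). SLC23A2 had the only SLC peak in the 5' UTR class, with its summit 39.5 kb into the gene.

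The other groups had few genes with a peak. SLC15A3, a lysosomal peptide and histidine transporter gene (3.93, 3 reads), was the only one of 5 peptide transporters. SLC44A4 (3.96, 3 reads) was the only one of 23 in the phosphate, vesicular and choline group, and SLC16A9 (2.99, 2 reads) the only one of 19 monocarboxylate and carboxylate carriers. SLC22A17, the gene of a lipocalin-2 receptor, was the only one of 44 organic ion, bile acid and drug transporters, with a fold of 2.99 on 2 reads. Families outside these groups had 2 of 12, SLC71A1 (deposited as HIAT1; 3.93, 3 reads) and SLC66A2 (deposited as PQLC1; 2.97, 2 reads). SLC12A2-DT had 2.95 on 2 reads.

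Sugar transporters had a peak at 0 of 38 genes, which allows a share of up to 7.89% by a limit of 3 counts (9.25% by the exact interval), so this does not differ detectably from the 6.83% of all protein-coding genes. A set of 8 transporter genes much studied in tumours, chosen after the values were seen, had 0 peaks by name and 0 summits inside the genes. They were the glucose transporter genes SLC2A1 and SLC2A3, the amino acid carrier genes SLC1A5, SLC3A2, SLC7A5 and SLC7A11, and the lactate carrier genes SLC16A1 and SLC16A3. In so small a set, 0 of 8 cannot be told apart from the 6.83% of all protein-coding genes. It is no result about these genes. At peaks that rest on 2 to 8 reads, a gene without a peak is one where none was detectable at this depth.

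**Figure D4:**
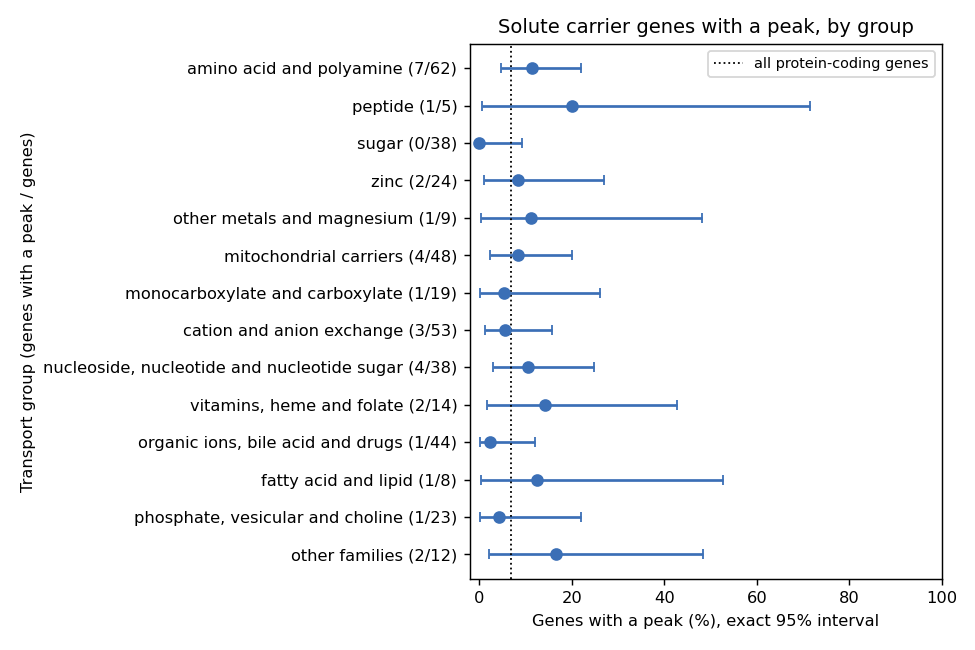
Share of protein-coding SLC genes with a peak (horizontal axis, percent) in each transport group, with exact 95% binomial intervals and the counts beside the names; the dotted line is the share of all protein-coding genes (6.83%). Amino acid carriers have 7 of 62 and sugar carriers 0 of 38, and every interval includes the line.

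In the authors' annotation, 22 of the 34 SLC peaks (64.7%, interval 46.5 to 80.3) were classed as promoter, within 3 kb of a transcript start, beside 59.6% of all peaks. A further 7 (20.6%, interval 8.7 to 37.9) were in the 3' UTR class, beside 13.2% of all peaks, inside the SLC interval. The exon class held 3 (8.82%, interval 1.86 to 23.7), beside 20.8% of all peaks, also inside the interval. The 5' UTR class held 1 (2.94%, interval 0.0744 to 15.3), beside 0.813%. Just downstream of a gene lay 1 (2.94%, interval 0.0744 to 15.3), beside 0.38%. Introns held 0 of 34 SLC peaks, which allows a share of up to 8.82% by the same limit of 3 counts (10.3% by the exact interval), beside 5.15% of all peaks. The median length of an SLC peak was 20 bases, beside 29 over all peaks.

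Measured from the 5' end of the RefSeq gene, the peaks inside their named gene lay mostly near either end. Of 27 such SLC summits, 9 were in the first 1 kb (33.3%, interval 16.5 to 54), beside 16% of 1484 peaks over all genes, which lies just below the interval. Among them were those of SLC6A12, SLC71A1, SLC38A2, SLC25A35, SLC22A17, SLC35E4, SLC33A1 and SLC38A12. Within 3 kb the count was 11 (40.7%, interval 22.4 to 61.2), with SLC39A7 and SLC35A4 added, beside 23.7%, which lies inside the interval. The last 20% of the gene held 10 SLC peaks (37%, interval 19.4 to 57.6), beside 31.5%. No difference between SLC peaks and all peaks in position was tested. The intervals treat each peak as independent, although SLC6A13 alone gave 3 of the 27. Of the 18 promoter-class peaks inside their gene, 7 (38.9%) were further than 3 kb from where the gene begins, beside 613 of 965 (63.5%) over all genes. These 7 include the 3 peaks of SLC6A13, no interval was computed for so few peaks, and this difference was not tested either.

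**Figure D5:**
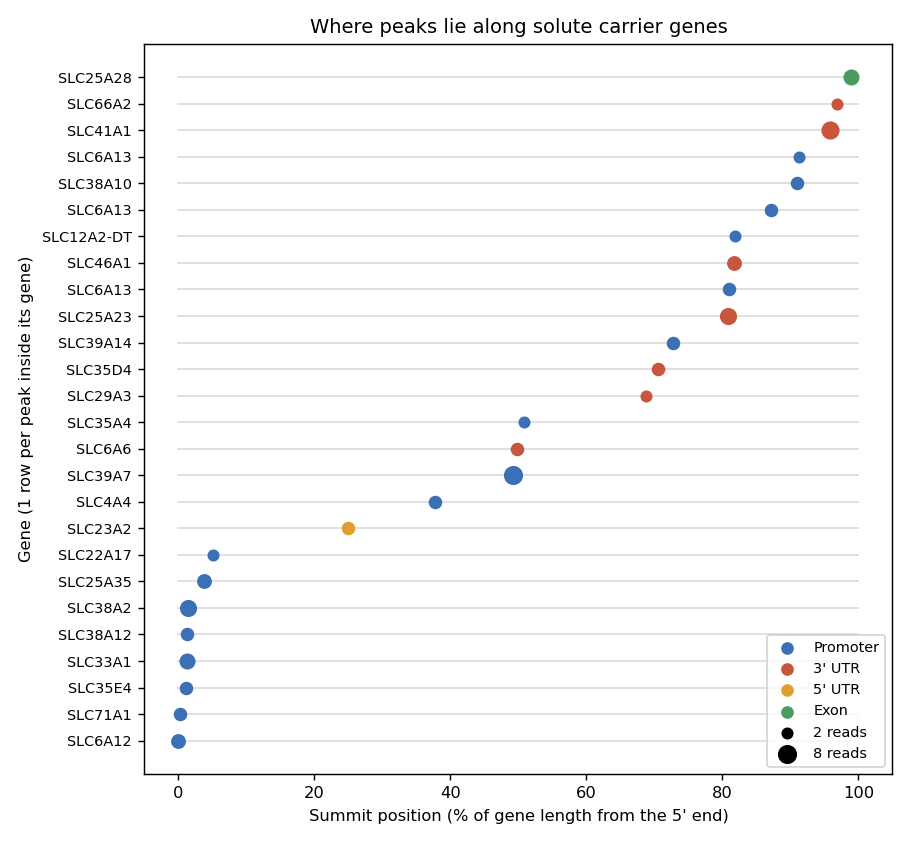
Position of the summit along the gene (horizontal axis, percent of gene length from the 5' end) for 26 SLC peaks inside their named gene, 1 row per peak, coloured by annotation class and sized by reads. Promoter-class peaks appear at both ends, with 8 peaks at the left edge in the first 1 kb and those of SLC6A13 and SLC38A10 beyond 80%.

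The gene named in the authors' table was not always the gene at the summit. Of the 34 summits, 27 (79.4%, interval 62.1 to 91.3) lay inside the named SLC gene, beside 80.5% over all peaks, 5 lay only in another gene and 2 in none. Besides SLC6A9, SLC4A1AP and SLC25A39, the peak of SLC15A3 lay in TMEM132A, 70 bases outside SLC15A3. That of SLC44A4 lay in EHMT2 and its antisense gene, 1088 bases outside, and that of SLC16A9 lay in no gene, 1670 bases outside.

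Conversely, 7 peaks listed under other names lay inside 5 SLC genes. SLC25A44 encodes the mitochondrial carrier of branched-chain amino acids (chromosome 1, 156194104 to 156212796), and both of its peaks were listed under PMF1-BGLAP. They had folds of 5.32 and 5.70 on 9 reads (interval 4.12 to 17.1) and 5 reads (interval 1.62 to 11.7). The summit of 9 reads is the deepest inside an SLC gene by either naming, over a background of 0.880. SLC38A12 had a second peak, listed under GRIN2C (4.91, 4 reads), and SLC6A17 had 1 listed under KCNC4-DT (3.99, 3 reads). The 2 peaks of SLC9A3-AS1 (3.93 each, 3 reads) also lie inside SLC9A3, the gene of the exchanger NHE3, on the other strand. The table gives no strand for a peak, so these 2 genes cannot be told apart. By summit position, 28 of 397 protein-coding SLC genes held a peak (7.05%, interval 4.74 to 10), beside 6.98% of all.

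Sequence was available where a RefSeq window of bases around a gene start reaches a peak. The SLC22A17 peak (114 bases) is covered whole: it lies 222 to 335 bases into the gene and upstream of another RefSeq start of the same gene. The 250 bases before that start are shown (chr14:23352452-23352701, minus strand, GRCh38.p14), with the peak in capitals, to set its base composition beside that of SLC38A2. The first 30 bases of the SLC71A1 peak follow (chr1:100038224-100038253, plus strand), with the summit base in a capital.
SLC22A17: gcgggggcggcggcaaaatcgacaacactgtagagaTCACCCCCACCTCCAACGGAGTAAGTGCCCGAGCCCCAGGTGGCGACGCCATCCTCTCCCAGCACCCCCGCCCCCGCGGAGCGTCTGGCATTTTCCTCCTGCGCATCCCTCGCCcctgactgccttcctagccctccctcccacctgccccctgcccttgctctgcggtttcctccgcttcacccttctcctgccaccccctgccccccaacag
SLC71A1: gatggTaaaatgacccaggggaagaagaag
The SLC22A17 peak is C-rich, with 48.2% C and 70.2% G and C together, while the SLC38A2 peak is T-rich with 25% G and C. The 35 bases of the SLC71A1 peak that the window covers held 45.7% G and C. These 3 stretches near gene starts differ widely in base composition. The shares of T and of C hold on the strand of the named gene, which the peaks themselves do not give. The share of G and C together is the same on either strand.

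Repeats of GGC and paired runs of G were looked for in the RefSeq windows from 250 bases before to 50 after each gene start, on the strand of the gene. Most of each window thus lies before the start, outside the mRNA leader read from it. Of the members, 21 have 1 or more windows. GGCGGCGGCGGC stood in 1 of them (4.76%), SLC4A4, beside 1.95% of 308 SLC genes and 2.81% of 15843 protein-coding genes. It lies 26 bases after 1 of several starts of SLC4A4 (chr4:71187276-71187305, plus strand), shown with the repeat in capitals, and the peak lies 68 kb further on.
SLC4A4: cgcttcggtGGCGGCGGCGGCcgcggtggc
GGGNNGGG stood in 16 of the 21 members (76.2%), beside 59.1% of SLC genes, 51.4% of protein-coding genes and 62.7% of all protein-coding genes with a peak. A gene with several windows has more chances of a match, and by window the shares were 58.6%, 51.1%, 45% and 52.5%. These matches are letters in a window, do not count structured leaders and were not tested.

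Other membrane transport genes had peaks at shares whose intervals all include the 6.83% of protein-coding genes. V-type ATPase genes, whose proton pump acidifies lysosomes, had 4 of 24 (16.7%, interval 4.74 to 37.4), led by ATP6V0C (5.70, 5 reads). P-type ATPases had 4 of 41 (9.76%, interval 2.72 to 23.1), led by ATP8B3 (4.99). ABC transporters had 3 of 46 (6.52%, interval 1.37 to 17.9), led by ABCA2 with 2 peaks and a best fold of 5.77. Ion and water channels had 11 of 211 (5.21%, interval 2.63 to 9.14). Their highest folds, KCNK9 (6.88) and MCOLN1 (6.65), had summits in other genes, and the water channel gene AQP3 had 5.61 on 5 reads inside the gene. Of 13 genes for partners and trafficking of solute carriers, 1 had a peak. This was BSG, encoding basigin, which brings lactate carriers to the cell surface, with a fold of 6.23 on 6 reads.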

How the data were processed

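RIP-seq of DU145 cells gave 1 eIF4A1 and 1 IgG library (title set number 2), grouped by the label for the antibody. The peak files have the layout of MACS2 and ChIPseeker, tools that the submitters' processing notes name with no version. The sources used here do not give which library was the control for the peaks, the filter named in the peak names, or whether duplicates were removed. The track deposited by the authors gives 1920 peaks with the fold as a linear ratio over control, −log10 p, −log10 q and a score, per the file headers and the narrowPeak order; 1919 are annotated in the other file. Symbols came from RefSeq (GRCh38.p14) through the deposited gene ID, found for 1918 peaks, and coordinates are 1-based on hg38.

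Reads and background at each summit were solved from fold, taken as (reads + 1)/(background + 1), and p, the Poisson probability of more reads (scipy 1.17.1). In all 1919 annotated peaks the solved number was whole to within 0.01. On 300 simulated peaks the reads were recovered in 100%. Those peaks were made with the same formula, so this checks the solving only and not whether the formula holds for the deposited values. Intervals are exact (Clopper-Pearson or Poisson, 95%) and cover counting error only. Members are named, except some that are not reported here; full values are given for a fold or reads of 5 or more or for several peaks. For other transport genes, up to 3 per list by fold were eligible. Members and lists were chosen with earlier results of these data known. Alternatives were stricter peaks, gene bodies, classes and merging.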

Additional observations from a re-analysis of the deposited data

How the results depend on the processing

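Stricter definitions of a peak lowered the counts. From 34 peaks at 31 genes with a median fold of 3.94, a −log10 q of at least 5 left 9 peaks at 8 genes (median fold 4.98). A fold of at least 5 left 8 peaks at 8 genes (5.78, median 6 reads beside 3), and at least 5 reads left 8 at 8 (5.78). Exon and UTR classes alone left 11 at 11. These settings hold fewer peaks by construction. Of 14 transport groups, 13 had a gene with a peak, against 6 at the stricter q and 6 with at least 5 reads. The promoter class held 64.7% of peaks and 81.4% of bases, as it held the longer peaks. These reached 152 bases, and no SLC peak of another class was longer than 40. Why promoter-class peaks were longer was not tested. Gene bodies gave 34 peaks at 29 genes, and summits inside the named gene only, chosen after seeing the data, 27 at 25. Single group counts moved by over 1.5 times in 24 comparisons and did not in 18. Added intergenic peaks and merging within 100 bases changed neither the numbers of peaks and genes, the medians of fold and reads, nor the promoter share. A tolerance of 0.05 for whole reads, run only on the number of peaks with a whole solution, left it at 34. Overlap with IgG regions was not run, since the file under the IgG sample lists eIF4A1 peaks. No paired analysis was possible because there was 1 library for each antibody, and no replicate could be left out.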
